A study of Rattus norvegicus with 3 samples.

Results

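The RT1 genes are the rat major histocompatibility complex (MHC), and they were taken here as every feature whose symbol begins with RT1-. This gave 30 features under 29 symbols among the 30560 features counted, 21 of class I and 9 of class II. Class II members were those with symbols in B, D or H, and all others were class I. RT1-S2 has 2 Ensembl entries, ENSRNOG00000032664 and ENSRNOG00000029001, which were kept apart. No feature in these files has a symbol of the classical RT1-A group, whose genes were not analysed here. The members therefore comprise the M block (7 features), the T block (3), the N and S block (5), the CE block (6) and class II. RNA was counted in single nuclei of whole brain from wild-type female Crl:CD(SD) rats, outbred animals 12 weeks old. Each of the 3 groups received 1 intraperitoneal injection and was sampled 7 hours later: saline as the sham control, lipopolysaccharide (LPS, a bacterial cell wall component) at 5 mg/kg, or poly(I:C) (a synthetic double-stranded RNA) at 12 mg/kg. Nuclei of 4 animals were pooled before each library, so every group is 1 library and no nucleus can be traced to its animal.

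Class I molecules pair a heavy chain with beta-2-microglobulin and show peptides from inside the cell to CD8 T cells, or act as ligands for receptors of natural killer cells. Their peptides are cut by the proteasome and its immune subunits and pumped into the endoplasmic reticulum by the Tap transporter, and their genes are driven by interferon, NF-kB and the transactivator Nlrc5. Class II molecules show peptides from outside the cell to CD4 T cells, rely on the invariant chain Cd74 and on DM for loading, and are switched on by Ciita. In the resting brain, class I is known mainly from vessels and at low level from neurons, and class II from microglia and macrophages of the brain's borders.

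In the order saline, LPS, poly(I:C), the libraries held 25435, 11211 and 15001 barcodes with 35532360, 29763787 and 21340578 unique molecular identifiers (UMIs), at a median of 1165, 2436 and 1264 UMIs per barcode. RT1 genes took 1709, 1910 and 2077 of these UMIs, and 6.15%, 12.1% and 9.43% of barcodes had at least 1. Pairs of libraries shared 247 to 550 barcode sequences. Levels are counts per 1000000 UMIs (CPM), and brackets give 95% intervals that cover counting error only. With 1 library a group there is no replicate check, no test and no p-value. Both challenges were set against 1 and the same saline library. Rat class I genes are close copies of one another, and outbred animals need not carry the reference haplotype, so reads of one copy may have been counted under another or not at all. Values of single members are uncertain to that extent. For the same reason, and because UMIs were not scaled to transcript length, levels are compared between groups or cell classes and not between genes.

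Over all barcodes, class I was higher after both challenges, and more so after poly(I:C). Its members summed to 1634 UMIs (46.0 CPM) after saline, 1806 (60.7 CPM) after LPS and 2004 (93.9 CPM) after poly(I:C). The sum was 1.32-fold [1.23 to 1.41] that of saline after LPS and 2.04-fold [1.91 to 2.18] after poly(I:C), and the LPS level was 0.646-fold [0.606 to 0.689] that of poly(I:C). In barcodes with at least 500 detected genes the poly(I:C) ratio was 1.77. In bulk sums of this kind, more nuclei of a class and more RNA per nucleus cannot be told apart.

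The blocks differed from one another. The CE block went from 216 UMIs after saline to 521 after LPS and 570 after poly(I:C), which is 2.88-fold [2.45 to 3.39] and 4.39-fold [3.75 to 5.16]. The N and S block went from 195 to 341 and 518 UMIs, or 2.09-fold [1.75 to 2.50] and 4.42-fold [3.74 to 5.24]. By contrast the M block held 882, 632 and 560 UMIs, at 0.855-fold [0.771 to 0.949] and 1.06-fold [0.949 to 1.18]. The T block lay between, with 341, 312 and 356 UMIs, at 1.09-fold [0.934 to 1.28] after LPS and 1.74-fold [1.49 to 2.02] after poly(I:C).

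Members were called apart when their levels differed at least 2-fold and the pair of libraries held at least 10 of their UMIs. After LPS, 7 of 16 measured class I members were higher and 1 was lower, where 3.24% of all 17539 measured features were higher and 2.85% lower. After poly(I:C), 9 of 16 were higher and 1 was lower, against 2.87% higher and 4.37% lower of 17268 features. The median log2 ratio over the measured class I members was 0.85 after LPS and 1.69 after poly(I:C), beside -0.03 and -0.09 over all measured features. All 7 members higher after LPS and all 9 higher after poly(I:C) were of the CE block or the N and S block. Requiring the whole counting interval to lie beyond 2-fold left 2 RT1 members higher after LPS (10 by the 2-fold rule, class II included) and 9 after poly(I:C) (11 by that rule).

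**Figure D1:**
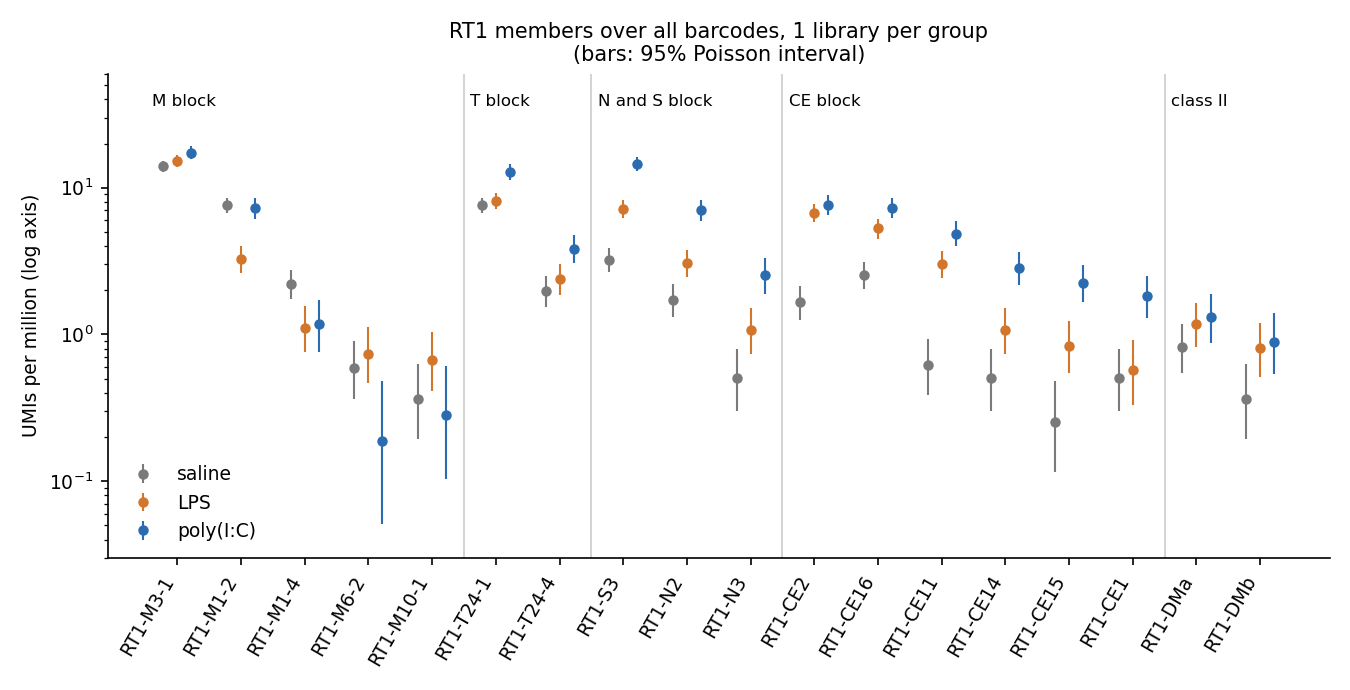
CPM over all barcodes (log axis) for the 18 RT1 members with at least 30 UMIs, 1 library per group, with 95% Poisson intervals. In the CE block and the N and S block the poly(I:C) points lie above saline for every member drawn. In the M block, by contrast, RT1-M1-2 is low after LPS only, RT1-M6-2 after poly(I:C) only and RT1-M1-4 after both challenges.

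In the CE block, RT1-CE2 had 59 UMIs after saline, 200 after LPS and 162 after poly(I:C), at 1.66, 6.72 and 7.59 CPM. It was 4.05-fold [3.01 to 5.51] higher after LPS and 4.57-fold [3.37 to 6.27] higher after poly(I:C), and was the member of its block whose challenged libraries lay closest, at 0.885-fold [0.716 to 1.10]. RT1-CE11 had 22, 90 and 104 UMIs and was 4.88-fold [3.04 to 8.18] and 7.87-fold [4.93 to 13.1] higher. RT1-CE16 had 90, 157 and 156 UMIs, or 2.08-fold [1.60 to 2.73] and 2.89-fold [2.21 to 3.78]. RT1-CE11 stood at 3.02 CPM after LPS and 4.87 after poly(I:C), and RT1-CE16 at 5.275 and 7.31. The other 3 members leaned further to poly(I:C). RT1-CE15 rested on 9, 25 and 48 UMIs, at 3.32-fold [1.497 to 8.07] and 8.88-fold [4.31 to 20.6], and RT1-CE14 on 18, 32 and 61, at 2.12-fold [1.16 to 4.02] and 5.64-fold [3.29 to 10.2]. RT1-CE1 had 18, 17 and 39 UMIs: its LPS level was 1.13-fold [0.546 to 2.32] that of saline and its poly(I:C) level 3.61-fold [2.02 to 6.70]. In these 3 members the LPS level was 0.313-fold to 0.376-fold that of poly(I:C).

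The stretches before the start sites show what some CE genes share. Promoters of RefSeq (build GRCr8, not the build of the counts) were matched to 25 of the 29 symbols by name. In 300 bases each, from 250 before to 50 after the start, 4 motifs were searched on both strands. The first was GAANNGAAA, a form of the interferon response element, and forms with other letters or spacing were not searched. The second was GGGNNTTCC, a kappa B type site bound by NF-kB. The third was the X box and the fourth ATTGG, the Y box, both known from MHC promoters. Over all 33469 promoters of that length, 8.54% held the first, 5.92% the second, 0.95% the third and 37.5% the fourth. GAANNGAAA lay in 5 of 17 class I promoters, those of RT1-CE16, RT1-CE15, RT1-CE11, RT1-N2 and RT1-T18, and in 0 of 5 of the M block. RT1-CE16 and RT1-CE11 also held GGGNNTTCC, with 12 bases between the motifs in each. The 250 bases before the start follow for RT1-CE16, RT1-CE11, RT1-CE15 and RT1-N2, shown because they were higher after poly(I:C) and carry GAANNGAAA. RT1-M3-1, whose level over all barcodes differed little, is added for contrast. In vessel barcodes, given below, RT1-M3-1 was higher after poly(I:C). Capitals mark the searched motifs on either strand.
RT1-CE16: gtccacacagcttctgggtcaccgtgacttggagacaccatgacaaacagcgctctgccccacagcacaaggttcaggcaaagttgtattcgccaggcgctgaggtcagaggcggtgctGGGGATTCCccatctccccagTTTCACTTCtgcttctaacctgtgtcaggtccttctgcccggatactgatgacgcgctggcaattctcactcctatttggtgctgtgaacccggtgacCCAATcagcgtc
RT1-CE11: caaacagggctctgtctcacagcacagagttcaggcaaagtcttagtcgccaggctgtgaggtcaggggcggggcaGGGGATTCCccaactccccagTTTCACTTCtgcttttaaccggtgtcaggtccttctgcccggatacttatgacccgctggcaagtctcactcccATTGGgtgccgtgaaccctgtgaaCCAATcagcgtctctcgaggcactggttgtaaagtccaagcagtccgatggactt
RT1-CE15: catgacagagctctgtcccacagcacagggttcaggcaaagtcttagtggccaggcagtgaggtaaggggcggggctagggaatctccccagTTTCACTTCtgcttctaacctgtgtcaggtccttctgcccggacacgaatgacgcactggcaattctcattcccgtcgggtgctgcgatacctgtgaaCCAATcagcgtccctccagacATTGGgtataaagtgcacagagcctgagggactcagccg
RT1-N2: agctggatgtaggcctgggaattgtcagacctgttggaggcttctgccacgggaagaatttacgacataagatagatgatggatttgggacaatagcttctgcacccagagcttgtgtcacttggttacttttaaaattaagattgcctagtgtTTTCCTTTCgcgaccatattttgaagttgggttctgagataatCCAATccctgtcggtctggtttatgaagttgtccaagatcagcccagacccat
RT1-M3-1: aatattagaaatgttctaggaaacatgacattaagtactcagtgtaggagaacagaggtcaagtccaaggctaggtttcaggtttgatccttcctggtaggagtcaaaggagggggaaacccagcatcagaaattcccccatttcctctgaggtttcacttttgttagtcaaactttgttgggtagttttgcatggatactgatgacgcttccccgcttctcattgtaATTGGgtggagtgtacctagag
These lie at chr20:3265444-3265693, minus strand (RT1-CE16), chr20:3363199-3363448, minus strand (RT1-CE11), chr20:3283771-3284020, minus strand (RT1-CE15), chr20:2646080-2646329, plus strand (RT1-N2) and chr20:1333367-1333616, minus strand (RT1-M3-1). With the interferon-type element lined up and no gaps, RT1-CE16 and RT1-CE11 matched at 204 of 257 bases (79.4%), RT1-CE11 and RT1-CE15 at 196 of 295 (66.4%), and RT1-CE16 and RT1-N2 at 66 of 286 (23.1%). RT1-M3-1 held only ATTGG among the searched motifs. Its stretch also holds tttcacttt, unmarked, which differs from TTTCACTTC in the last letter, as does the stretch of RT1-N3. A match is a description of letters, not a binding site: RT1-CE2 and RT1-CE1, both higher after poly(I:C), held none of the 4 motifs in their windows, as did RT1-M1-2.

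In the N and S block, poly(I:C) gave the higher level for each of the 3 members that could be measured. RT1-S3 had 115, 213 and 311 UMIs and was 2.21-fold [1.75 to 2.80] higher after LPS and 4.50-fold [3.62 to 5.63] higher after poly(I:C). RT1-N2 had 61, 91 and 150 UMIs, or 1.78-fold [1.27 to 2.51] and 4.09-fold [3.02 to 5.61]. RT1-N3 had 18, 32 and 54 UMIs, or 2.12-fold [1.16 to 4.02] and 5.00-fold [2.88 to 9.05]. The LPS level was 0.491-fold, 0.435-fold and 0.425-fold that of poly(I:C) for the 3, all under 1 with their intervals. In that direct comparison of the challenges, which does not use saline, 7 of 16 class I members were at least 2-fold lower after LPS and 2 were higher, against 2.18% lower and 3.78% higher of all features. Both RT1-S2 entries had 6 or fewer UMIs in all.

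The 2 measured T block members differed little after LPS and were higher after poly(I:C), by less than 2-fold. RT1-T24-1 had 270, 241 and 274 UMIs, at 1.07-fold [0.892 to 1.27] and 1.69-fold [1.42 to 2.01] that of saline. RT1-T24-4 had 70, 71 and 82 UMIs, at 1.21-fold [0.858 to 1.71] and 1.95-fold [1.40 to 2.72]. RT1-T18 had 1 UMI in all.

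Over all barcodes, the class I members called lower were both of the M block. RT1-M1-2 had 270 UMIs after saline, 97 after LPS and 155 after poly(I:C), at 7.60, 3.26 and 7.26 CPM. Its LPS level was 0.429-fold [0.337 to 0.543] that of saline, while its poly(I:C) level was 0.956-fold [0.779 to 1.17], and LPS over poly(I:C) was 0.449-fold [0.345 to 0.582]. RT1-M1-4, of the same family, had 78, 33 and 25 UMIs and was lower after both, just short of 2-fold, at 0.505-fold [0.326 to 0.768] and 0.534-fold [0.326 to 0.847]. The M1 and M10 families are known from the mouse, where their relatives are expressed in sensory neurons of the vomeronasal organ. RT1-M3-1, relative of a mouse gene whose product presents formylated peptides, had 499, 456 and 370 UMIs and barely differed, at 1.09-fold [0.959 to 1.24] and 1.24-fold [1.08 to 1.42]. RT1-M6-2 followed another pattern, with 21, 22 and 4 UMIs and 0.317-fold [0.0792 to 0.940] after poly(I:C). RT1-M10-1 had 13, 20 and 6 UMIs, at 1.84-fold [0.869 to 4.02] and 0.769-fold [0.240 to 2.17]. RT1-M2 and RT1-M5 had at most 3 UMIs in any library.

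To place these levels, barcodes were assigned to cell classes by marker UMIs: at least 2 distinct markers of a class, at least 3 marker UMIs, and 0.2% or more of the barcode's UMIs. Neurons had at least 3 distinct pan-neuronal markers and no other gate, and barcodes that passed several gates were kept apart. Of 173 marker symbols, 163 were found. The gates are not pure. Syt1, a synaptic vesicle gene, was found in 62.7%, 48.0% and 45.3% of the endothelial gate's nuclei (saline, LPS, poly(I:C)), and pan-neuronal markers reached 6335, 7284 and 5334 CPM there, beside 12020, 12220 and 12630 CPM in excitatory neurons. The 10 endothelial markers reached 5209, 5469 and 5869 CPM, with none at 0. Mural markers stood at 1413 to 1549 CPM in that gate with 2 of 10 at 0, and the 3 erythroid markers at 3053 to 4336 CPM with 1 at 0. The 10 neutrophil markers stood at 3.92, 8.36 and 104 CPM in that gate, with 9, 9 and 7 of them at 0, and their part in the poly(I:C) values was not tested. In the same order, Syt1 was found in 81.1%, 61.5% and 60% of microglia and macrophage nuclei. It was found in 82.9%, 72.2% and 70.8% of choroid plexus nuclei and 76.55%, 63.67% and 72.56% of oligodendrocyte precursors. For ependymal nuclei the shares were 61.1% after saline and 29.6% after LPS, and for astrocytes 55.6% and 29.8%. The choroid plexus marker Htr2c had 740 UMIs in the saline gate and 5356 in saline neurons. The levels and ratios of these gates carry that limit.

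Among single gates of at least 50 nuclei, the endothelial gate had the highest class I level in each library. The endothelial gate held 225, 73 and 139 nuclei with 78, 154 and 262 class I UMIs, at 306 [242 to 382], 1288 [1093 to 1508] and 2092 [1846 to 2361] CPM. This was 4.21-fold [3.19 to 5.60] higher after LPS and 6.84-fold [5.29 to 8.92] higher after poly(I:C). The gate had 0.718%, 0.402% and 0.587% of each library's UMIs but 4.77%, 8.53% and 13.1% of its class I UMIs. Relative to all neurons of the same library, its class I level was 8.13-fold [6.38 to 10.2] higher after saline, 35.3-fold [29.6 to 41.9] after LPS and 39.9-fold [34.7 to 45.7] after poly(I:C). In nuclei without a UMI of Syt1, Snap25 and Rbfox3, poly(I:C) over saline was 4.56-fold, from 72 and 68 nuclei. The 2 challenges were not separated firmly in this gate: LPS over poly(I:C) was 0.616-fold [0.501 to 0.754], but 0.959-fold with each nucleus thinned to 500 UMIs and 1.07-fold in the nuclei without the 3 neuronal genes.

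**Figure D2:**
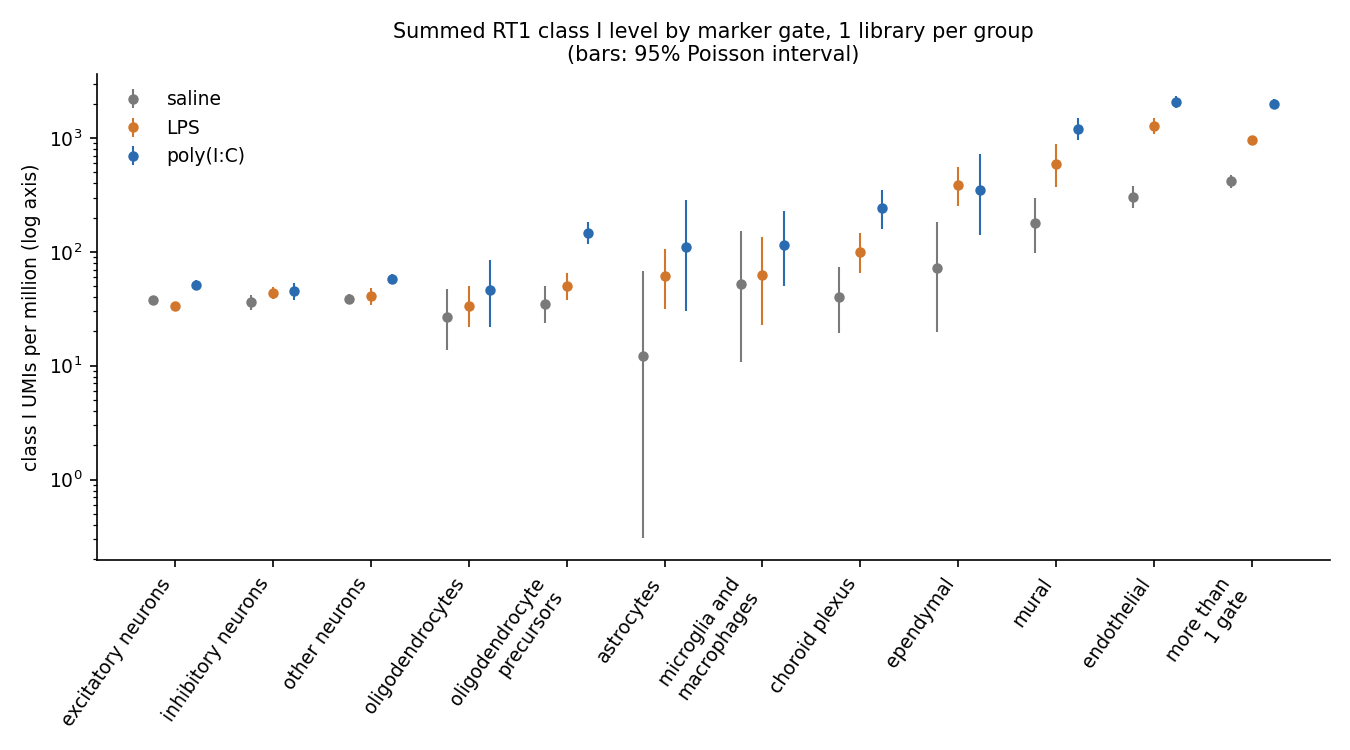
Summed class I CPM by marker gate (log axis), 1 library per group, with 95% Poisson intervals. Endothelial, mural and multi-gate barcodes lie highest in every library, and there both challenges lie above saline (the LPS mural gate holds only 24 nuclei), while the 3 neuron classes stay between 33.3 and 58.0 CPM in every library.

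The difference was spread over the nuclei of the gate. At least 1 class I UMI was found in 30.2% [24.3 to 36.7], 71.2% [59.5 to 81.2] and 75.5% [67.5 to 82.4] of endothelial nuclei, at medians of 830, 857 and 602 UMIs. In excitatory neurons, at medians of 1559, 3273 and 1640 UMIs, the shares were 6.37%, 10.7% and 7.998%. Thinned to 500 UMIs per nucleus, the endothelial shares were 18.2%, 52.1% and 55.7%, and those of up to 1500 excitatory neurons 2.36%, 1.87% and 2.49%; nuclei below 500 UMIs were left out, 27, 0 and 42 of them endothelial. No endothelial nucleus had 3 or more class I UMIs after saline, whereas 24 of 73 did after LPS and 41 of 139 after poly(I:C), with up to 14 and 10 UMIs in 1 nucleus.

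Among members in the endothelial gate, 5 of 7 measured after LPS and 7 of 8 after poly(I:C) were at least 2-fold higher and 0 were lower. Of all features in this small gate, 9.18% were higher and 13.6% lower after LPS, and 11.5% and 15.5% after poly(I:C). Members with under 10 saline UMIs, such as RT1-CE11 (3) and RT1-CE14 (5), reached the minimum of 10 only through a challenged library. The counts of higher and lower members are partly set by that minimum. RT1-CE2 led after LPS, from 8 UMIs after saline to 44 after LPS and 48 after poly(I:C), or 11.7-fold [5.46 to 28.8] and 12.2-fold [5.73 to 29.9]. RT1-CE11 went from 3 UMIs to 14 and 21, or 9.95-fold [2.78 to 54.0] and 14.3-fold [4.26 to 74.6]. RT1-S3 favoured poly(I:C), from 15 UMIs to 26 and 66, or 3.70-fold [1.89 to 7.51] and 8.96-fold [5.06 to 16.9]. RT1-CE16 had 12, 31 and 41 UMIs, at 5.51-fold [2.75 to 11.8] and 6.96-fold [3.59 to 14.5]. RT1-T24-1, level over all barcodes after LPS, was 2.79-fold [1.28 to 6.24] higher there and 4.70-fold [2.38 to 9.81] after poly(I:C), on 13, 17 and 30 UMIs. RT1-M3-1 had only 7, 4 and 5 UMIs.

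Many vessel barcodes carried markers of several gates. Of 488, 374 and 199 barcodes in several gates, 345, 136 and 113 passed only the endothelial, mural and fibroblast gates, and these held 88.7%, 76.7% and 80.8% of the class I UMIs of that set. Joining them to the endothelial gate, a choice made after seeing the data, gave 570, 209 and 252 nuclei with 281, 525 and 574 class I UMIs. The ratios were then 4.31-fold [3.72 to 5.00] and 5.69-fold [4.92 to 6.58], with 8 of 10 measured members higher after LPS (9.54% of all features) and 11 of 11 after poly(I:C) (8.03%). None was lower, where 10.5% and 16.7% of all features were. RT1-CE15, RT1-CE1, RT1-N3, RT1-CE11 and RT1-CE14 had 0, 3, 3, 4 and 6 saline UMIs there. They reached the minimum of 10 UMIs only through a challenged library, so these counts are partly set by that minimum. RT1-CE11 had 4, 47 and 40 UMIs there, at 27.1-fold [9.91 to 104] and 27.9-fold [10.1 to 107]. RT1-CE2 had 30, 135 and 90 UMIs, at 10.4-fold [6.95 to 16.0] and 8.35-fold [5.47 to 13.1]. RT1-M3-1 had 17, 10 and 18 UMIs, at 1.36-fold [0.555 to 3.14] and 2.95-fold [1.43 to 6.09]. RT1-CE15, with 0 UMIs after saline and 11 after poly(I:C), was at least 10.2-fold higher, counted against 3 UMIs in the saline gate.

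Other non-neuronal gates held fewer class I UMIs. Mural nuclei had 14 UMIs in 77 nuclei after saline (179 CPM) and 80 in 62 after poly(I:C) (1209 CPM), or 6.77-fold [3.81 to 12.9]. With 24 nuclei the LPS mural gate (23 UMIs, 592 CPM) was too small to compare. Choroid plexus nuclei went from 40.4 to 100 and 241 CPM on 10, 26 and 26 UMIs, or 2.49-fold [1.16 to 5.78] and 5.98-fold [2.79 to 13.9]. Ependymal nuclei had 4 UMIs after saline (71.9 CPM) and 27 after LPS (386 CPM), or 5.36-fold [1.87 to 21.1]. With 21 nuclei the poly(I:C) ependymal gate (7 UMIs, 353 CPM) was too small to compare. Oligodendrocyte precursors stood at 35.0, 50.3 and 147 CPM on 30, 56 and 80 UMIs, or 1.43-fold [0.905 to 2.32] and 4.20-fold [2.73 to 6.62]; with Pcdh15, a marker also found in neurons, left out, the gate shrank to 84, 193 and 48 nuclei and the ratios were 4.795 and 24.1 against 1 saline UMI. Oligodendrocytes had 12, 25 and 10 UMIs, astrocytes 1, 12 and 4, and microglia and macrophages 3, 6 and 8, too few to order the groups. Gates for T and NK cells, B cells and neutrophils held 0 to 7 nuclei.

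Neurons gave most class I UMIs and made up most of the nuclei, 21273, 8446 and 12721 of them. They held 72.8%, 53.1% and 50.5% of each library's class I UMIs, at 37.6 [35.5 to 39.8], 36.5 [34.2 to 38.9] and 52.5 [49.3 to 55.8] CPM. Of all UMIs, excitatory neurons held 48.07%, 57.45% and 48.18%, inhibitory neurons 13.98%, 18.68% and 15.25%, and other neurons 26.89%, 12.07% and 26.89%. In each of these classes and libraries the share of class I UMIs was below the share of all UMIs. The LPS sum was 0.887-fold [0.791 to 0.994] that of saline in excitatory, 1.21-fold [0.992 to 1.47] in inhibitory and 1.06-fold [0.865 to 1.28] in other neurons. The poly(I:C) sum was 1.37-fold [1.22 to 1.54], 1.25-fold [1.001 to 1.57] and 1.51-fold [1.30 to 1.75]. In excitatory neurons it was 1.15-fold without the barcodes of the highest doublet scores.

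Neurons and endothelial nuclei differed in which class I genes they carried. The M block gave 67.4% [64.6 to 70.0] of neuronal class I UMIs after saline, 55.7% [52.5 to 58.9] after LPS and 46.4% [43.3 to 49.5] after poly(I:C), but 10.3% [4.53 to 19.2], 3.90% [1.44 to 8.29] and 1.91% [0.623 to 4.397] in endothelial nuclei. The CE block gave 7.23%, 12.2% and 15.6% in neurons and 37.2%, 59.7% and 50.8% in endothelial nuclei. In level, the CE block was 41.8-fold [26.5 to 64.3] higher in endothelial nuclei than in neurons after saline, and the M block 1.24-fold [0.533 to 2.45].

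**Figure D3:**
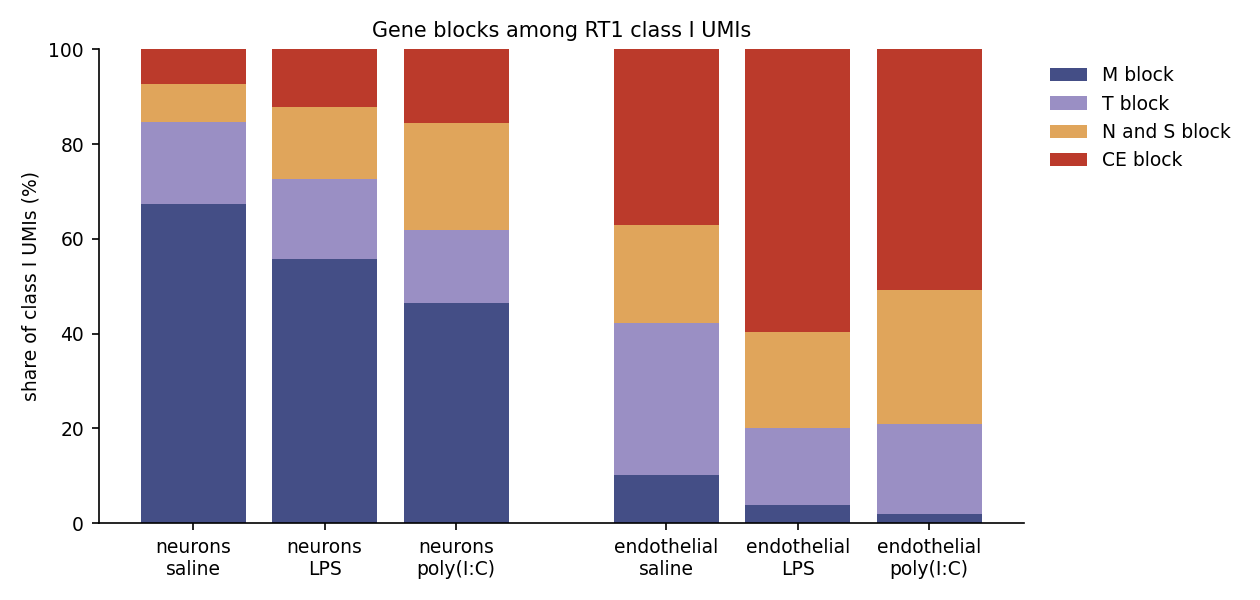
Share of class I UMIs (%) from each gene block in neurons and in the endothelial gate, 1 library per bar. The M block takes 46.4% to 67.4% in neurons and at most 10.3% in endothelial nuclei, where the CE block takes 37.2% to 59.7%.

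Within neurons, the CE block and the N and S block were again the higher ones after poly(I:C). Of 16 measured class I members, 8 were at least 2-fold higher and 2 lower after poly(I:C), against 2.29% higher and 3.68% lower of all features. After LPS 2 were higher and 2 lower, against 1.83% and 2.91%. The CE block was 1.64-fold [1.23 to 2.19] after LPS and 3.01-fold [2.30 to 3.96] after poly(I:C), and the N and S block 1.81-fold [1.39 to 2.37] and 3.85-fold [3.03 to 4.94]. RT1-S3 had 30, 51 and 88 UMIs in neurons, at 2.05-fold [1.28 to 3.33] and 4.81-fold [3.15 to 7.54]. RT1-CE2 had 12, 31 and 40 UMIs, at 3.11-fold [1.55 to 6.65] and 5.47-fold [2.81 to 11.4]. The endothelial markers stood at 48.4, 38.0 and 41.4 CPM in excitatory neurons with none of 10 at 0, and the part of vessel RNA in these values was not tested.

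RT1-N2 had most of its UMIs in neurons in every library, where most UMIs of all genes lay too. Of its 61, 91 and 150 UMIs, 54, 78 and 111 were in neurons and 0, 1 and 4 in endothelial nuclei. In neurons it stood at 1.71, 2.97 and 5.76 CPM, or 1.74-fold [1.21 to 2.51] and 3.37-fold [2.41 to 4.76]. Its few endothelial UMIs made 0, 8.36 and 31.9 CPM. Oligodendrocyte precursors stood at 2.34, 2.69 and 29.4 CPM on 2, 3 and 16 UMIs. After poly(I:C) the RT1-N2 level in neurons was thus below that of both these gates. The precursor gate leans on Pcdh15, a marker also found in neurons, and RT1-N2 was not measured with Pcdh15 left out. In excitatory neurons the ratios were 1.64-fold [1.03 to 2.66] and 3.11-fold [1.98 to 4.97] on 31, 51 and 58 UMIs. Of the same block, RT1-N3 had 12, 12 and 27 of its 18, 32 and 54 UMIs in neurons and 1, 4 and 4 in endothelial nuclei. RT1-S3 had 30, 51 and 88 of its 115, 213 and 311 UMIs in neurons and 15, 26 and 66 in endothelial nuclei.

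RT1-M1-2 likewise had most of its UMIs in neurons, and its LPS difference was seen in each of the neuron classes. Neurons held 93.0%, 95.9% and 92.9% of its UMIs, 251 after saline, 93 after LPS and 144 after poly(I:C), at 7.94, 3.54 and 7.47 CPM. Over all barcodes it stood at 7.60, 3.26 and 7.26 CPM, so these shares were close to those of all UMIs. LPS over saline was 0.431-fold [0.316 to 0.583] in excitatory, 0.460-fold [0.241 to 0.851] in inhibitory and 0.480-fold [0.244 to 0.874] in other neurons. After poly(I:C) the ratios were 1.04-fold [0.788 to 1.35], 0.694-fold [0.350 to 1.31] and 0.879-fold [0.577 to 1.32]. Oligodendrocyte precursors held 3, 1 and 6 UMIs of RT1-M1-2 and barcodes of no class 5, 0 and 1. These are too few to say whether the LPS difference was particular to neurons. RT1-M1-4 was lower in excitatory neurons after both, with 48, 18 and 11 UMIs, at 0.375-fold [0.205 to 0.656] and 0.381-fold [0.178 to 0.743]. RT1-M3-1 in neurons stood at 14.1, 14.1 and 15.3 CPM, on 446, 371 and 295 UMIs. In oligodendrocyte precursors it stood at 9.35, 20.6 and 38.6 CPM, on 8, 23 and 21 UMIs, and was not measured there with Pcdh15 left out. Median depth in excitatory neurons was 3273 UMIs after LPS, against 1559 and 1640, and its part in these values was not tested.

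**Figure D4:**
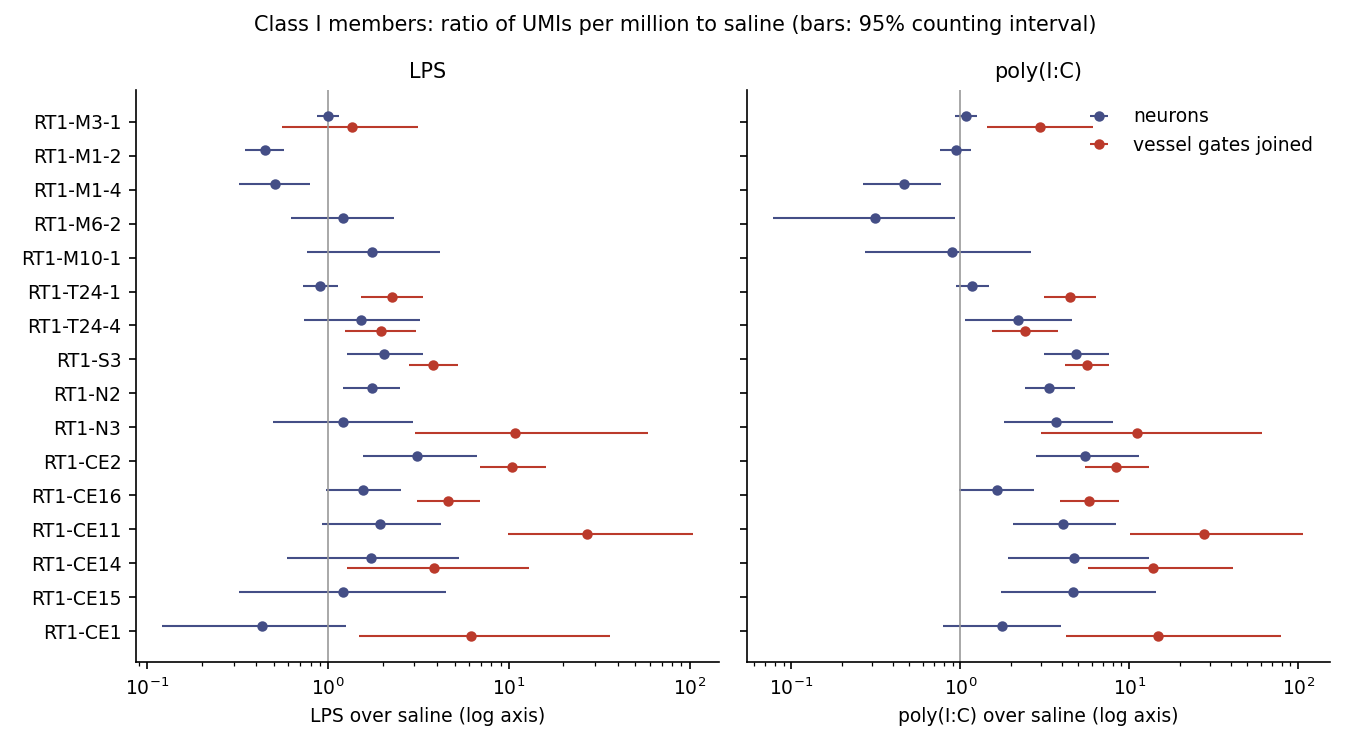
Ratio to saline (log axis) of 16 class I members after LPS (left) and poly(I:C) (right) in neurons and in the joined vessel gates, with 95% counting intervals. Members with fewer than 10 UMIs over both libraries, or with 0 in one, are not drawn. The CE members drawn for both lie further right in vessels than in neurons, and RT1-M1-2 and RT1-M1-4 lie left of 1 in neurons after LPS.

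Of 15 measured genes of the class I pathway, listed with earlier results known, 8 reached 2-fold or more above saline after LPS and 10 after poly(I:C), and 0 were lower. Over all features, 3.24% were higher and 2.85% lower after LPS, and 2.87% and 4.37% after poly(I:C). The 5 genes under 2-fold in both comparisons were the immunoproteasome subunit Psmb10 (1.38-fold and 1.81-fold), the peptide-trimming Erap1 (1.08-fold and 1.38-fold), and the chaperones Calr (1.08-fold and 1.15-fold), Canx (0.968-fold and 1.08-fold) and Pdia3 (1.05-fold and 1.30-fold). B2m, the light chain of every class I molecule, had 1064, 1892 and 1936 UMIs, or 2.12-fold [1.97 to 2.29] and 3.03-fold [2.81 to 3.27]. Nlrc5, the class I transactivator, had 29, 169 and 392 UMIs, or 6.96-fold [4.67 to 10.7] and 22.5-fold [15.4 to 34.1]. Tap1, a chain of the peptide pump, had 14, 81 and 146 UMIs, at 6.91-fold [3.89 to 13.2] and 17.4-fold [10.0 to 32.6], and Tap2, its partner, had 39, 103 and 111, at 3.15-fold and 4.74-fold. The immunoproteasome subunits Psmb8 (22, 79 and 211 UMIs) and Psmb9 (38, 143 and 200) were 4.29-fold and 4.49-fold higher after LPS and 16.0-fold and 8.76-fold higher after poly(I:C). Irf1, an activator of class I promoters, was 2.32-fold and 2.66-fold higher, and Tapbp, which holds class I at the pump, 4.50-fold after poly(I:C) on 10 and 27 UMIs. The proteasome activator genes Psme1 and Psme2 were 2.61-fold and 2.07-fold higher after poly(I:C).

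In the endothelial gate 9 of 12 measured genes of that pathway reached 2-fold or more above saline after LPS and 13 of 14 after poly(I:C), where 9.18% and 11.5% of all features in this gate did. Here too, genes with under 10 saline UMIs, such as Tap1 (1), Tap2 (3) and Psmb8 (3), were measured only through a challenged library. B2m had 180, 297 and 457 UMIs there, at 706, 2484 and 3649 CPM, or 3.52-fold [2.91 to 4.26] and 5.17-fold [4.34 to 6.18]. Nlrc5 had 0, 3 and 27 UMIs, which is at least 18.3-fold higher after poly(I:C), against 3 counts. Neurons also showed it: Nlrc5 had 16, 37 and 162 UMIs, or 2.78-fold [1.51 to 5.36] and 16.6-fold [9.92 to 29.7], and B2m 278, 316 and 458, or 1.37-fold [1.16 to 1.61] and 2.70-fold [2.32 to 3.15].

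Class II was sparse in every library. Its 9 members summed to 75, 104 and 73 UMIs, at 2.11, 3.49 and 3.42 CPM, or 1.66-fold [1.22 to 2.26] after LPS and 1.62-fold [1.16 to 2.27] after poly(I:C). After LPS 3 of 7 measured members were at least 2-fold higher and after poly(I:C) 2 of 4, with 0 lower, against 3.24% and 2.87% higher and 2.85% and 4.37% lower of all features. RT1-DMb, a chain of the DM peptide loader, had 13, 24 and 19 UMIs, or 2.20-fold [1.08 to 4.71] and 2.43-fold [1.14 to 5.36]. RT1-DMa, its partner chain, had 29, 35 and 28, or 1.44-fold [0.856 to 2.44] and 1.61-fold [0.922 to 2.80]. The 7 others, among them the surface chains RT1-Da, RT1-Db1, RT1-Ba and RT1-Bb, had 2 to 23 UMIs over the 3 libraries. RT1-Db1 and RT1-Db2 had 4, 9 and 5 and 4, 11 and 5 UMIs. Reads may be split between them, which was not tested. Cd74 had 23, 34 and 11 UMIs and Ciita 4, 8 and 8. Of the 13 genes of the class II pathway, 1 was at least 2-fold higher after each challenge, Ciita on those few UMIs.

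In RefSeq's gene order on chromosome 20 (build GRCr8) the M block comes first, then the T, N and S genes, the CE block and last all 9 class II genes. Of the class II promoters, 5 of 8 class II promoters held the X box, each followed on the same strand by a Y box 20 to 23 bases further on, as known for MHC class II promoters. None of 17 class I promoters held this X box, and 0 of 8 class II promoters held GAANNGAAA. For RT1-Da (alpha chain of the DR type) and RT1-Db1 (its beta chain), shown because they carry this pair of boxes, the 250 bases before the start are, in build GRCr8 of RefSeq, with motifs in capitals:
RT1-Da: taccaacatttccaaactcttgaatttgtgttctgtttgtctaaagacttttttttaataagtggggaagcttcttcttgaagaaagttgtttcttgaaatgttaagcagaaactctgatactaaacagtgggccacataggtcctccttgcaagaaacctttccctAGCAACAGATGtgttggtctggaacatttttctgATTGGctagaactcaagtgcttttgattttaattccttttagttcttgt
RT1-Db1: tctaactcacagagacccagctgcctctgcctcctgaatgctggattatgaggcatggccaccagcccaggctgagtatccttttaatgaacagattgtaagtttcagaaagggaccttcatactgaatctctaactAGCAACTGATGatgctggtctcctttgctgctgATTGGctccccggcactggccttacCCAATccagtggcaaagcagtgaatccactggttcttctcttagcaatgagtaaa
They lie at chr20:4515165-4515414, plus strand and chr20:4560163-4560412, minus strand. The X box is AGCAACAGATG in RT1-Da and AGCAACTGATG in RT1-Db1, 83 and 113 bases before the start, with 23 and 22 bases to the next ATTGG.

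Class II had its highest level in microglia and macrophage nuclei, while most of its UMIs lay in neurons. Even so, in each neuron class and library the share of class II UMIs was below the share of all UMIs. Neurons held 51, 55 and 42 class II UMIs, 68.0%, 52.9% and 57.5% of each library's, and the microglia and macrophage gate 2.67%, 8.65% and 13.7%. That gate held 53, 65 and 70 nuclei with 2, 9 and 10 class II UMIs, at 34.8 [4.22 to 126], 93.5 [42.7 to 177] and 144 [69.2 to 265] CPM, whereas neurons stood at 1.61, 2.10 and 2.18 CPM. The gate was 21.6-fold [2.54 to 82.0], 44.6-fold [19.4 to 91.0] and 66.2-fold [29.6 to 134] above neurons in class II. Its ratios to saline, 2.69-fold [0.556 to 25.5] and 4.14-fold [0.883 to 38.9], rested on 2 saline UMIs and had intervals that included 1. A class II UMI was found in 1 of 53, 8 of 65 and 10 of 70 of its nuclei. In these nuclei the 12 microglia and macrophage markers stood at 3516, 3904 and 4557 CPM with none at 0. The 8 markers of border macrophages stood at 0, 93.5 and 14.4 CPM, with 8, 6 and 7 of them at 0. RT1-DMa gave 0, 5 and 5 of the gate's class II UMIs and RT1-DMb 0, 1 and 4.

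**Figure D5:**
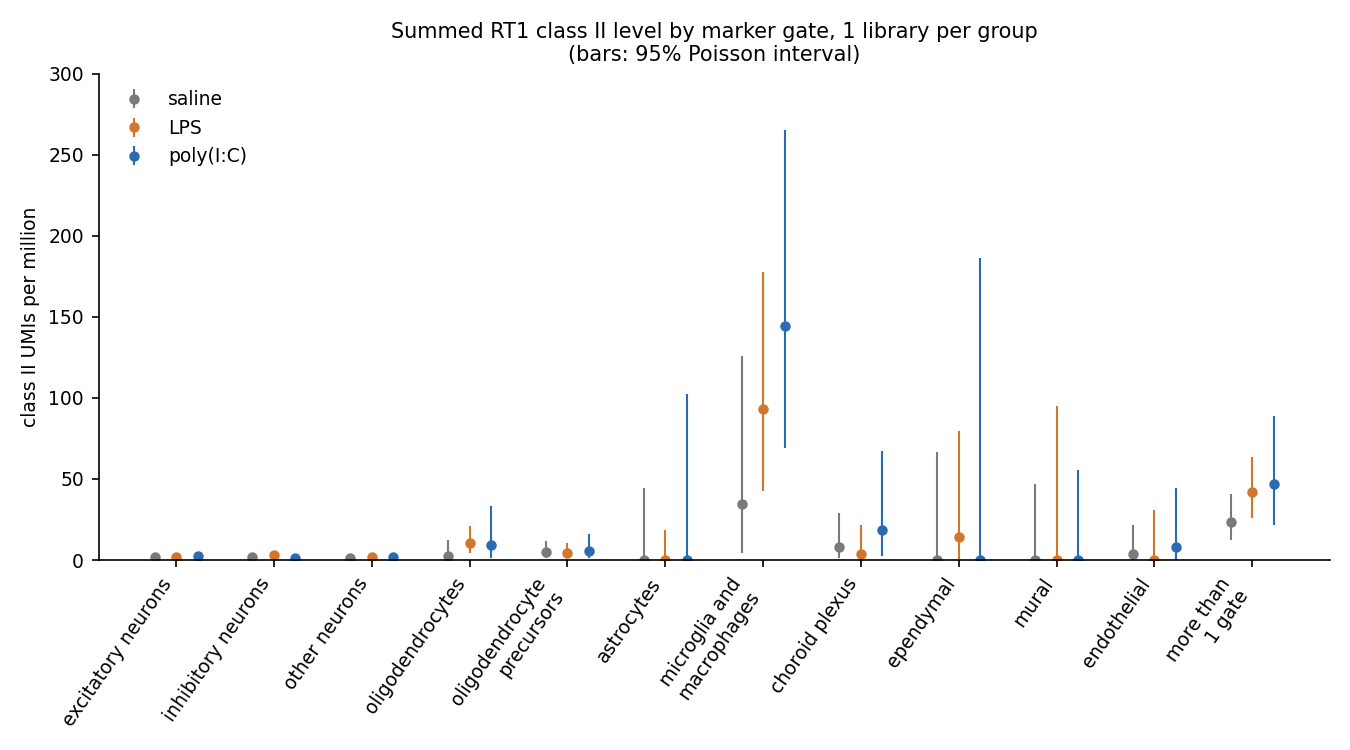
Summed class II CPM by marker gate, 1 library per group, with 95% Poisson intervals. The microglia and macrophage gate lies highest at 34.8, 93.5 and 144 CPM, and its intervals overlap between the libraries.

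At the level of single barcodes, class II appeared in 65, 98 and 71 of them, and 3, 6 and 2 had at least 2 class II UMIs. A saline barcode with markers of several gates held 9 (3 of RT1-Da, 3 of RT1-Db1, 2 of RT1-Ba and 1 of RT1-DMa) and 6 of Cd74, among 2376 UMIs. Cd74 was found in 4.62% [0.962 to 12.9], 7.14% [2.92 to 14.2] and 4.23% [0.880 to 11.9] of barcodes with a class II UMI, and in 0.0552%, 0.234% and 0.0536% of the others. The first shares rest on 3, 7 and 3 barcodes, and the 3 of saline all had at least 2 class II UMIs. Barcodes of equal depth were not compared. In the endothelial gate class II had 1, 0 and 1 UMIs, against 78, 154 and 262 of class I.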

How the data were processed

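Nuclei were profiled with 5' droplet single-nucleus RNA-seq. The deposited values are UMI counts, unscaled, for each gene in each barcode, made by the authors with Cell Ranger 7.0.0 on build mRatBN7.2, per the submitters' processing notes; the annotation release and the cell calling are not given in the sources used here. From these counts, RT1 UMIs were summed per library and per marker gate (Python 3.11.15, numpy 2.4.6, scipy 1.17.1, pandas 2.3.3) and scaled to 1000000 UMIs. Intervals are exact at 95%: Poisson for levels, conditional binomial for ratios and Clopper-Pearson for shares. A ratio against 0 counts used 3 counts over the library or gate and is a bound; gates under 50 nuclei were not compared. Members with at least 30 UMIs over the 3 libraries are named with values, plus sparser ones where a count turned on them. The members, markers and lists were chosen with earlier results of these data known. Scrublet (scanpy 1.11.5) with its automatic threshold marked 0 of 25435 saline barcodes and so did not work; doublets were kept, and an alternative left out the highest-scored 5026, 977 and 1771 barcodes. Other alternatives changed scaling, gates, depth, minimum counts and the fold. The ratio and interval code was tested on simulated counts.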

Additional observations from a re-analysis of the deposited data

How the results depend on the processing

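Of 294 values under alternatives, 259 moved by less than their counting interval or count limit; scaling by median of ratios, a denominator without mitochondrial genes and subtraction of 5% free RNA moved none. Over all barcodes, class I poly(I:C) over saline was 1.774 and LPS over poly(I:C) 0.732 with at least 500 genes, and 1.835 and 0.7071 without the highest doublet scores (a choice made after seeing the data, as were thinning to 500 UMIs, joined vessel gates and left-out neuronal markers). Endothelial LPS over saline was 5.639 thinned to 1000 UMIs; poly(I:C) over saline was 4.561 without neuronal UMIs; LPS over poly(I:C) was 1.068 without neuronal UMIs, 0.959 thinned to 500 and 0.7577 with vessel gates joined. In oligodendrocyte precursors the LPS and poly(I:C) ratios were 2.771 and 8.699 with 3 markers, 2.58 and 8.758 without neuronal UMIs and 4.795 and 24.07 without Pcdh15. Oligodendrocytes gave 3.063 for LPS without neuronal UMIs and 0.4128 for poly(I:C) thinned to 1000 (1 UMI against 5), choroid plexus 2.774 for poly(I:C) thinned to 500, and excitatory neurons 1.149 for poly(I:C) without the highest doublet scores. Microglia and macrophages reversed to 0.9498 for poly(I:C) with at least 500 genes, on 3 UMIs each. Members at least 2-fold higher after LPS numbered 10, and 2 with the interval beyond 2-fold. Those lower numbered 1 after each challenge, but 2 with 500 genes, without the highest doublet scores or at 1.5-fold, and 0 by interval; for poly(I:C) also 0 at a minimum of 30 UMIs. LPS over poly(I:C) had 2 higher (1 without the highest doublet scores, 0 at 30 UMIs or by interval) and 7 lower (11 at 1.5-fold, 0 by interval). The causes were not tested. Astrocyte alternatives with 0 saline UMIs gave only a bound and no value. No paired analysis was possible because each group is 1 library. Depth limits single class II members, and class I in microglia and in saline astrocytes, to a few UMIs.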
